A study of Mus musculus with 8 samples.

Results

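The comparison set all 4 liver libraries that had received a short hairpin RNA virus against all 4 that had received a lacZ control virus, with the experiment as a covariate. It used 8 of the 8 libraries of the series. The Dnajb9 experiment held lacZ1 and shDnajb9 mice aged 3 months, and the Rictor experiment held lacZ2 and shRictor mice aged 4 months, with 2 libraries in each group. All mice were lean, wild-type C57BL/6, were given 0.1 OD of adenovirus and were sampled 1 week later after 6 h of food withdrawal. Total RNA was depleted of ribosomal RNA and sequenced, and the authors deposited raw gene counts. The labels do not say what the lacZ virus expresses, the lacZ gene or a control hairpin, nor whether the libraries of a group are separate animals, so p-values measure the spread among these samples only, which may be technical. Libraries from livers without virus were not analysed here, so a higher level after a hairpin virus and a lower level after a lacZ virus cannot be told apart, and "rose" and "fell" below mean higher and lower in hairpin libraries.

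The experiments differed in age, in the label of the control (lacZ1 or lacZ2) and in the targeted gene, and shared no library. The comparison asks which differences from lacZ the 2 hairpin viruses had in common. Adult hepatocytes normally rest outside the cell cycle and express the enzymes of urea, bile acid and amino acid metabolism at high levels. When they enter the cycle, cyclin E drives the start of DNA replication, and the kinase encoded by Cdk1 drives mitosis. Promoters of mitotic genes typically carry CCAAT boxes, bound by the factor NF-Y, and a cell cycle homology region bound by the MuvB complex. Promoters of interferon-stimulated genes typically carry an interferon response element.

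The promoters of 3 genes are printed because they hold the motifs of lists described below. Each runs 5′ to 3′ on the strand of its gene from 250 bases before to 20 bases after the RefSeq start (GRCm38.p6), and capitals mark the motif on either strand. The CCAAT box was searched on both strands by the letters of its name. The cell cycle homology region was searched as TTTGAA, also on both strands. The core of the interferon response element was searched as 2 blocks of GAAA with 2 bases of any kind between them. No matches overlapped in the printed promoters. Ckap2 encodes a spindle protein, and its promoter lies at chr8:22185800-22186069 on the minus strand. Prc1 encodes a protein that bundles microtubules between dividing cells, and its promoter lies at chr7:80294201-80294470 on the plus strand. Ifit1 encodes an interferon-induced protein that binds foreign RNA, and its promoter lies at chr19:34640639-34640908 on the plus strand.
Ckap2: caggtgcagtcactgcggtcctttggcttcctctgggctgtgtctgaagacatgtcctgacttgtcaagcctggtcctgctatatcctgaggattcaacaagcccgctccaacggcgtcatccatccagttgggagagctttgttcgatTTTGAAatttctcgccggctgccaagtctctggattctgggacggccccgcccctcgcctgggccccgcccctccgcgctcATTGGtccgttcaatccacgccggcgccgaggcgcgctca
Prc1: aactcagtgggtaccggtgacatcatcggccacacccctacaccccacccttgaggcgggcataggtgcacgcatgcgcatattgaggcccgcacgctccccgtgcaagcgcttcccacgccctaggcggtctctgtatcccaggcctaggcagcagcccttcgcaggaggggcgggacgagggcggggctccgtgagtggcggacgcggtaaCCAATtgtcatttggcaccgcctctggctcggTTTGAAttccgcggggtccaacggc
Ifit1: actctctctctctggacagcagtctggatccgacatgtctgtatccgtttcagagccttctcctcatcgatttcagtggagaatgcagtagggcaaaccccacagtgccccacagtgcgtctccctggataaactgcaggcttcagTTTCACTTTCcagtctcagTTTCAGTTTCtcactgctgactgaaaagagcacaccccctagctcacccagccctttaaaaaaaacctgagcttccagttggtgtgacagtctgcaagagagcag
Among the 26 of 30 mitosis genes with a RefSeq promoter of 300 bases, 84.6% held CCAAT and 73.1% held TTTGAA, against 41.1% and 20.2% of 27025 genes. Both motifs occurred in 18 of these 26 genes, or 69.2%, against 9.0% of all genes. Of 23 matched DNA replication genes, 73.9% held CCAAT and 8.7% held TTTGAA. The interferon response element core occurred in 9 of 16 matched type I interferon genes, or 56.2%, against 4.0% of all genes. A match describes the letters of a promoter and does not show a bound factor.

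Counts assigned to genes lay between 6426164 and 11383532 per library. Principal component 1, which held 64.3% of the variance, placed the lacZ libraries between -56.55 and -37.16 and the hairpin libraries between 25.52 and 69.52. Several technical values followed the same division. Reads without a unique alignment made up 26.7% to 42.0% of HTSeq counts in hairpin libraries and 22.9% to 24.9% in lacZ libraries, and 15359 to 16247 against 16363 to 16840 genes were detected. For each of these measures the exact permutation test of arm within experiment, two-sided, gave p = 0.0556, the smallest that its 36 arrangements allow. TMM factors were 0.743 to 0.919 in hairpin libraries and 1.07 to 1.28 in lacZ libraries, and counts with total count scaling, which leaves these factors out, stand beside the results that they change. The libraries shDnajb9 replicate 1 and lacZ2 replicate 1 stood apart from the rest, with 4.70% and 4.26% of gene counts in Rpph1 against 1.11% to 2.03% elsewhere, and counts that moved by over 1.5 times without them are given both ways. Counts of the male genes Ddx3y, Kdm5d, Uty and Eif2s3y were at least 134 in every library and Xist had at most 8.

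The targeted genes were examined first, with gene positions from GENCODE M21 on build GRCm38 (mm10). Dnajb9, a co-chaperone of the endoplasmic reticulum (chr12:44205559-44210326, minus strand), had 30.6 and 38.0 CPM in lacZ1, 40.5 and 38.8 in lacZ2, 22.0 and 20.3 in shDnajb9 and 61.1 and 43.8 in shRictor, where CPM are counts per 1000000 with library sizes adjusted by TMM, a trimmed mean of log ratios. Both shDnajb9 libraries were the lowest of the 8 and both shRictor libraries were the highest. In its own experiment Dnajb9 differed by -0.70 on the log2 scale (SE 0.246, adjusted p = 0.0549, edgeR), which did not pass. Across the arms Dnajb9 differed by -0.13 (SE 0.235, adjusted p = 0.695, edgeR), which did not pass either. Rictor, the defining subunit of mTOR complex 2 (chr15:6708379-6800401, plus strand), had 65.5 and 68.8 CPM in lacZ1, 52.5 and 65.2 in lacZ2, 33.3 and 63.3 in shDnajb9 and 40.1 and 42.0 in shRictor. Its log2 fold change was -0.49 (SE 0.198, adjusted p = 0.0777, edgeR), and the groups overlapped through shDnajb9 replicate 2. In its own experiment Rictor differed by -0.52 (SE 0.281, adjusted p = 0.228, edgeR), which did not pass. The value in the Dnajb9 experiment was similar, -0.46 (adjusted p = 0.235, edgeR). Rictor was not called in 7 of the 8 fits without a single library, all but that without shDnajb9 replicate 2 (log2 fold change -0.70). It passed with total count scaling (-0.88, adjusted p = 0.0114, edgeR), which moved the median of all genes to -0.43. Dnajb9 did not pass with that scaling (-0.55, adjusted p = 0.094, edgeR).

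Of 13477 genes with enough counts, 2018 rose (15.0%) and 2396 fell (17.8%) at an adjusted p under 0.05 in the edgeR quasi-likelihood test. A change of 2-fold or more was reached by 817 of the risers and 1401 of the fallers, and a change of 8-fold or more by 32 and 110. All 4 hairpin libraries lay above all 4 lacZ libraries in 2205 genes (16.4%) and below them in 2437 (18.1%). With total count scaling only, the median of all genes moved from -0.02 to -0.43 and 780 genes rose while 4954 fell, so that risers made up 13.6% of the calls in place of 45.7%. Directions below are therefore relative to TMM scaling. Without the 2 libraries that stood apart, 1546 genes rose and 1922 fell. Without shRictor replicate 1, 1312 rose.

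Measured separately, the Dnajb9 experiment gave 3328 called genes (24.7%) and the Rictor experiment 2498 (18.5%). Of the genes called in the Dnajb9 experiment, 92.73% had the same sign in the Rictor experiment, and of those called in the Rictor experiment 96.04% had the same sign in the Dnajb9 experiment, against 72.43% of all tested genes. Across genes, which are not independent replicates, the log2 fold changes had a Pearson's r of 0.747 and a Spearman's rho of 0.649. Called in both experiments in the same direction were 1527 genes, of which 580 rose (4.30%) and 947 fell (7.03%). Only 10 were called in opposite directions, among them H2-Q2, Ifit2, Kcnk1, Mfsd2a, Oas1a, Oas1g, Radil, Slc17a8 and Zfp9, named after their values were seen. The count of 1527 moved when libraries were left out. Without replicate 1 or 2 of lacZ1 it was 748 or 998, without replicate 1 of lacZ2 or of shRictor it was 840 or 803, and without the libraries that stood apart it was 984.

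The difference between the experiments was itself tested. A single gene passed, Slc17a8, which encodes a vesicular glutamate transporter, while 1481 had an unadjusted p under 0.05, and DESeq2 gave 45 and limma-voom 1. Slc17a8 stood at 31.1 and 35.0 CPM in lacZ1, 31.8 and 39.5 in lacZ2, 9.64 and 10.2 in shDnajb9 and 79.3 and 88.5 in shRictor. It was low in shDnajb9 and high in shRictor with no overlap of these with the controls, a log2 fold change of -1.73 against 1.23 and an adjusted p of 0.00953 for the difference (edgeR). No gene passed without lacZ1 replicate 2, lacZ2 replicate 1 or shRictor replicate 2, while 17 did without shDnajb9 replicate 2, 5 without lacZ2 replicate 2 and 2 without shRictor replicate 1. Among the genes called over all 8 libraries, 373 differed between experiments at an unadjusted p under 0.05, so a pooled call does not show that the experiments changed by the same amount. Pls1, which encodes the actin-bundling protein plastin 1, is an example: it had 0.976 and 2.03 CPM in lacZ1, 0.933 and 0.338 in lacZ2, 29.97 and 14.7 in shDnajb9 and 0.235 and 0.489 in shRictor. It was high only in shDnajb9 and its pooled call (log2 fold change 2.83, SE 0.739, adjusted p = 0.0133, edgeR) was lost without lacZ1 replicate 1 or 2.

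**Figure D1:**
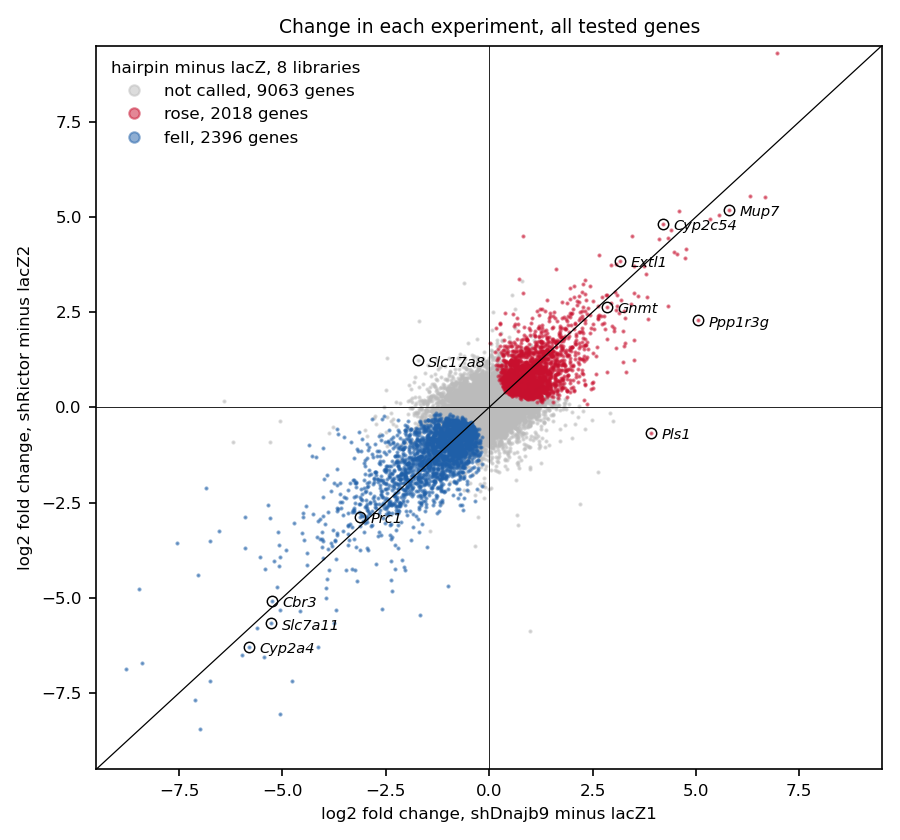
Each point is a tested gene, with its log2 fold change in the Dnajb9 experiment on the x axis and in the Rictor experiment on the y axis; red points are the 2018 genes that rose over all 8 libraries, blue points the 2396 that fell and grey points the rest, and the diagonal marks equal change. Over all genes r was 0.747. Coloured genes were called by a fit over both experiments, which favours genes that changed alike, so their place near the diagonal is partly set by that choice. Slc17a8 and Pls1 are labelled examples off the diagonal.

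The genes with the smallest adjusted p among the fallers came from xenobiotic metabolism and the cell cycle. Cyp2a4, a female-biased steroid hydroxylase (chr7:26307169-26315088, plus strand), had 78.3 and 189 CPM in lacZ1, 189 and 199 in lacZ2, and 2.51, 2.28, 2.59 and 2.35 in the hairpin libraries. The hairpin libraries were all near the same low level, a 67.0-fold fall (log2 fold change -6.07, SE 0.321, adjusted p = 7.79e-06, edgeR). Since 38.0% of its sequence is shared with other genes, the counting may have split reads with Cyp2a5 or other relatives, and the value is uncertain. Ccne1, which encodes cyclin E1 (chr7:38097984-38107534, minus strand), had 37.7 and 40.8 CPM in lacZ1, 38.2 and 40.4 in lacZ2, 5.66 and 4.33 in shDnajb9 and 4.12 and 5.38 in shRictor. Neither arm spread widely, and the fold change of 8.10 had an adjusted p of 7.79e-06 (edgeR). Cbr3, a carbonyl reductase and target of the oxidant sensor NRF2 (chr16:93683215-93690990, plus strand), had 205, 284, 328 and 194 CPM in the lacZ libraries and 4.61, 7.76, 5.41 and 9.88 in the hairpin libraries. This was a 36.0-fold fall.

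Ckap2 and Prc1, whose promoters are printed above, were among the same 12 fallers. Ckap2 stood at 42.0, 69.5, 39.1 and 32.1 CPM in the lacZ libraries and at 2.93, 3.65, 2.47 and 3.03 in the hairpin libraries, a 14.5-fold fall. For Prc1 the values were 59.6, 79.3, 44.9 and 52.97 CPM against 8.59, 7.42, 6.12 and 7.24, a 7.97-fold fall. Both genes were highest in lacZ1 replicate 2, and the arms did not overlap. Cdk1 fell 6.83-fold and Mybl1, which encodes the A-MYB transcription factor, 13.2-fold. Ly6d, a surface protein known from B cell progenitors, went from 201 and 199 CPM in lacZ1 and 424 and 197 in lacZ2 to between 6.47 and 9.22, a 31.5-fold fall. Golm1, a Golgi membrane protein known as a serum marker of liver disease, fell 5.55-fold, Gpnmb, a membrane glycoprotein of macrophages, 12.3-fold and Cox6b2, a testis form of a cytochrome oxidase subunit, 17.4-fold.

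The 12 risers with the smallest adjusted p held genes of metabolism and pheromone transport. Extl1, a glycosyltransferase related to the heparan sulfate polymerases (chr4:134356372-134383850, minus strand), had 1.33 and 1.19 CPM in lacZ1, 0.933 and 0.846 in lacZ2, 10.7 and 12.3 in shDnajb9 and 11.9 and 13.7 in shRictor. The arms were separated by an 11.2-fold change (log2 fold change 3.49, SE 0.231, adjusted p = 1.1e-05, edgeR). Car5a, a mitochondrial carbonic anhydrase that supplies bicarbonate to the urea cycle and gluconeogenesis, went from between 4.90 and 6.92 CPM to between 27.4 and 36.0. Igfbp3, a carrier of insulin-like growth factor 1 in blood, rose 5.37-fold, P2ry4, a nucleotide receptor, 6.30-fold, Sntg2, a syntrophin, 12.6-fold and Acpp, an acid phosphatase, 11.9-fold. Cyp2d40 and Lrit1 rose 8.07-fold and 5.96-fold. Mup7 and Mup1, major urinary proteins that carry pheromones, rose 45.5-fold and 40.2-fold, Ces3b, a carboxylesterase, 15.7-fold and Cml1 5.55-fold. Mup7, Mup1 and Ces3b share 86.7%, 61.6% and 26.2% of their sequence with other genes and their values are uncertain. None of these 24 genes lost its call when any single library was left out. The rule that named them asked for the smallest adjusted p and no overlap of the arms. Keeping the call was therefore largely set by that choice and is no separate support.

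**Figure D2:**
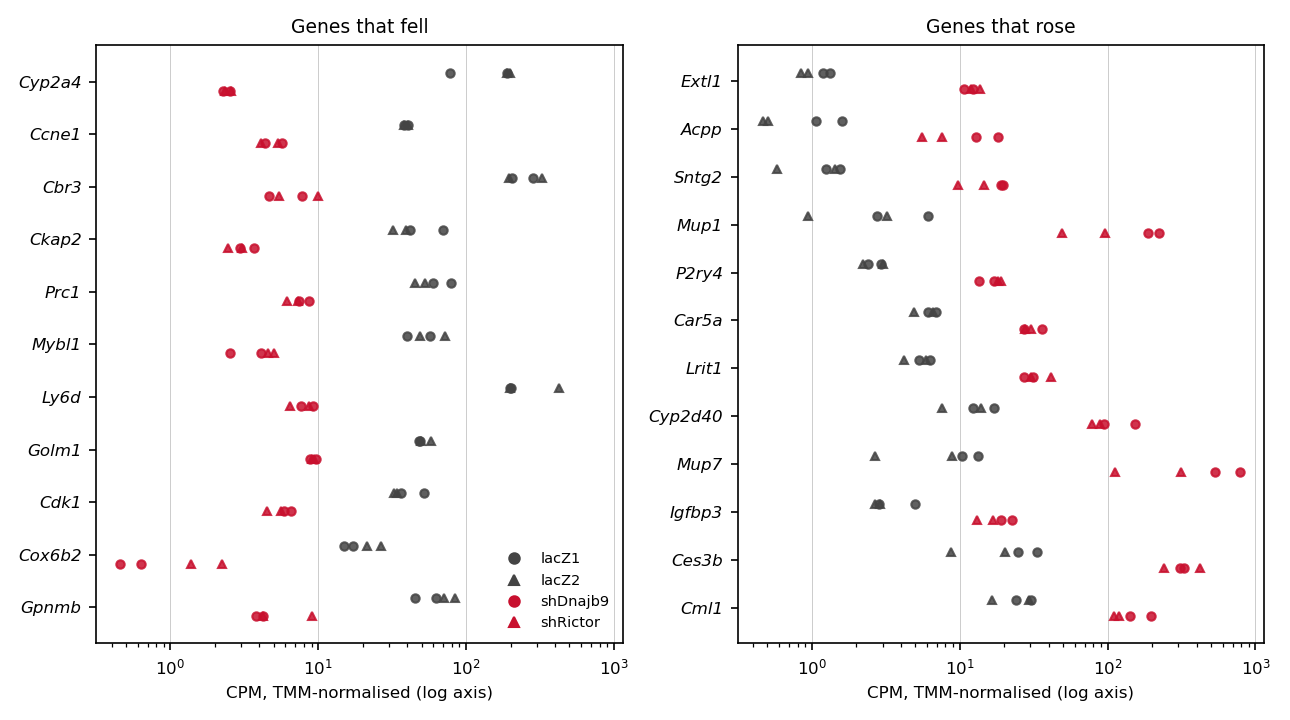
CPM in each of the 8 libraries on a log axis for 11 of the 12 fallers (left) and the 12 risers (right) with the smallest adjusted p; grey symbols are lacZ libraries, red symbols hairpin libraries, circles the Dnajb9 and triangles the Rictor experiment. The red and grey symbols do not overlap for any of the 23 genes, which the rule for naming them required; in Ly6d, lacZ2 replicate 1 lies at 424 CPM, above the other lacZ libraries.

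The remaining results follow gene lists, each described by its counts and its median log2 fold change beside -0.02 for all tested genes. Each count is to be read beside the 15.0% of all tested genes that rose and the 17.8% that fell. Among 30 mitosis genes all 30 fell, with a median of -2.78 and a range from -3.86 to -1.72, where 17.8% of all genes fell. All 30 also fell in each experiment, with medians of -2.96 in the Dnajb9 experiment and -2.58 in the Rictor experiment, and all 30 lay below the lacZ libraries in every hairpin library. Aurka, a kinase of the spindle poles, stood at 36.8, 47.8, 36.0 and 27.8 CPM in the lacZ libraries and between 4.22 and 6.50 in the hairpin libraries. Ccnb1 (cyclin B1), Ube2c (an enzyme of the anaphase-promoting complex) and Plk1 (a mitotic kinase) had log2 fold changes of -3.77, -3.48 and -3.17, and Kif23, a kinesin of the midbody, changed least with -1.72. The count of 30 held when any single library was left out.

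DNA replication genes fell less far. Of 28, 24 fell and 1 rose, with a median of -1.65. The helicase subunits Mcm5, Mcm6 and Mcm3 fell 4.32-fold, 3.83-fold and 3.44-fold, and Uhrf1, which maintains DNA methylation, 4.13-fold. Mcm5 stood at 76.9 and 96.3 CPM in lacZ1, 62.7 and 87.9 in lacZ2, and between 15.3 and 21.4 in the hairpin libraries. The gene that rose was Mcm10, a replication initiation factor, from between 38.2 and 61.9 CPM to between 86.8 and 148 (log2 fold change 1.11, SE 0.216, adjusted p = 0.003, edgeR). Every hairpin library was above every lacZ library for Mcm10 and below every lacZ library for Mcm5. Gins1 and Tk1 did not pass, with log2 fold changes of -0.02 and 0.13.

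Most targets of the stress-induced factors p53 and NRF2 were lower in the hairpin libraries. Of 19 p53 targets, 15 fell and none rose, with a median of -1.09 and 11 called in both experiments. Cdkn1a, the cell cycle inhibitor p21 (chr17:29090976-29100727, plus strand), had 69.7 and 47.3 CPM in lacZ1, 112 and 61.3 in lacZ2, 7.34 and 5.36 in shDnajb9 and 5.18 and 8.32 in shRictor. It was about equally low in all hairpin libraries, a 10.99-fold fall (log2 fold change -3.46, SE 0.274, adjusted p = 1.58e-05, edgeR). Ddit4l, an inhibitor of mTOR signalling, fell 10.3-fold, Tnfrsf10b, a death receptor, 6.94-fold and Phlda3, an AKT inhibitor, 5.25-fold. Bax, Bbc3, Fas and Perp did not pass, with log2 fold changes of -0.88, -0.33, -0.36 and 0.33. Both p21, the inhibitor, and the genes of mitosis were lower in the same libraries.

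Of 19 NRF2 targets, 13 fell and none rose, with a median of -1.27. Srxn1, which restores oxidised peroxiredoxins, stood at 711 and 805 CPM in lacZ1, 859 and 648 in lacZ2, and at 141, 125, 81.8 and 103 in the hairpin libraries. Slc7a11, the cystine importer, went from between 31.8 and 119 CPM to between 0.881 and 2.12, a 45.1-fold fall. Gstm3, a glutathione transferase with 28.8% shared sequence, fell 15.9-fold. Gclm, Me1, Taldo1 and Prdx1 had log2 fold changes between -0.07 and 0.07 and did not pass, so members of the list differed widely. The drug metabolism list held 6 glutathione transferases, which did not move one way. Gsta1, Gstm1, Gstm2 and Gsta2 fell 11.4-fold, 3.95-fold, 3.08-fold and 1.67-fold, Gsta3 rose with a log2 fold change of 1.07, and Gstp1 did not pass with 1.04 (adjusted p = 0.0519, edgeR). Gsta1 and Gsta2 share 90.5% and 49.8% of their sequence, and the Gsta2 call was lost without lacZ1 replicate 2, shDnajb9 replicate 2 or shRictor replicate 1 (adjusted p up to 0.0751).

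Genes of the ATF4 amino acid response divided. Of 21 tested, 10 fell and 1 rose, with a median of -0.76. Psat1, an enzyme of serine synthesis, stood at 6.12 and 6.56 CPM in lacZ1, 8.28 and 7.36 in lacZ2, 0.419 and 1.03 in shDnajb9 and 1.53 and 1.37 in shRictor. Fgf21, a fasting hormone made by liver, fell 7.52-fold, and Mthfd2, a mitochondrial folate enzyme, 3.16-fold. Atf3, a stress-induced transcription factor, fell 3.80-fold. Shmt2, a mitochondrial serine enzyme, rose 1.72-fold (log2 fold change 0.78, SE 0.188, adjusted p = 0.00927, edgeR). It passed in the Rictor experiment (0.98, adjusted p = 0.0254, edgeR) and not in the Dnajb9 experiment (0.58, adjusted p = 0.126, edgeR). With total count scaling Shmt2 did not pass (0.35, adjusted p = 0.127, edgeR), and 14 members of the list fell with none rising. Asns, Atf4 and Trib3, classic members of the response, did not pass, with log2 fold changes of 0.39, 0.53 and 0.03.

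The amino acid catabolism and urea cycle list rose almost throughout. Of 25 tested genes 23 rose and none fell, with a median of 1.39, where 15.0% of all genes rose, and 23 were also called without the 2 libraries that stood apart. Gnmt, which uses up methyl groups by methylating glycine (chr17:46725664-46729168, minus strand), had 561 and 764 CPM in lacZ1, 299 and 544 in lacZ2, 6080 and 3515 in shDnajb9 and 2891 and 2391 in shRictor. The highest value was in shDnajb9 replicate 1 and the lowest in lacZ2 replicate 1, and the fold change was 6.73 (log2 fold change 2.75, SE 0.313, adjusted p = 0.000111, edgeR). Prodh, proline dehydrogenase, rose 7.15-fold, Haao, an enzyme of tryptophan breakdown, 5.09-fold and Hal, histidine ammonia-lyase, 4.62-fold. Asl and Otc, enzymes of the urea cycle, had log2 fold changes of 1.80 and 1.39. Cps1, the entry enzyme of the cycle, and Gldc, of glycine cleavage, did not pass, with 0.94 and -0.34.

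Sex-biased liver genes moved in opposite directions although every library had male gene counts. Of 20 growth hormone dependent, male-biased genes, 16 rose and none fell, with a median of 1.59, and 13 were called in both experiments. Of these 20 genes, 6 share 20% or more of their sequence with other genes and are uncertain. Nudt7, a peroxisomal hydrolase of coenzyme A, stood at 58.0 and 88.0 CPM in lacZ1, 50.4 and 72.8 in lacZ2, 460 and 498 in shDnajb9 and 362 and 282 in shRictor. Mup21 rose 22.1-fold. Igf1, Ghr and Igfals, of the growth hormone axis itself, had log2 fold changes of 1.24, 1.41 and 1.52, while Socs2, Cish and Stat5b did not pass, with 0.58, -0.10 and 0.14. Of 13 female-biased genes only 7 had enough counts to test, and 4 of these fell with none rising. A gene of this kind passes the count filter through the group where it is high, so this count is no measure of the whole list. Abcd2, a peroxisomal transporter, fell 3.83-fold and Cyp2b9 5.99-fold. Cyp2b13, with 27.3% shared sequence, fell from between 0.621 and 2.03 CPM to 0.294 CPM or less.

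**Figure D3:**
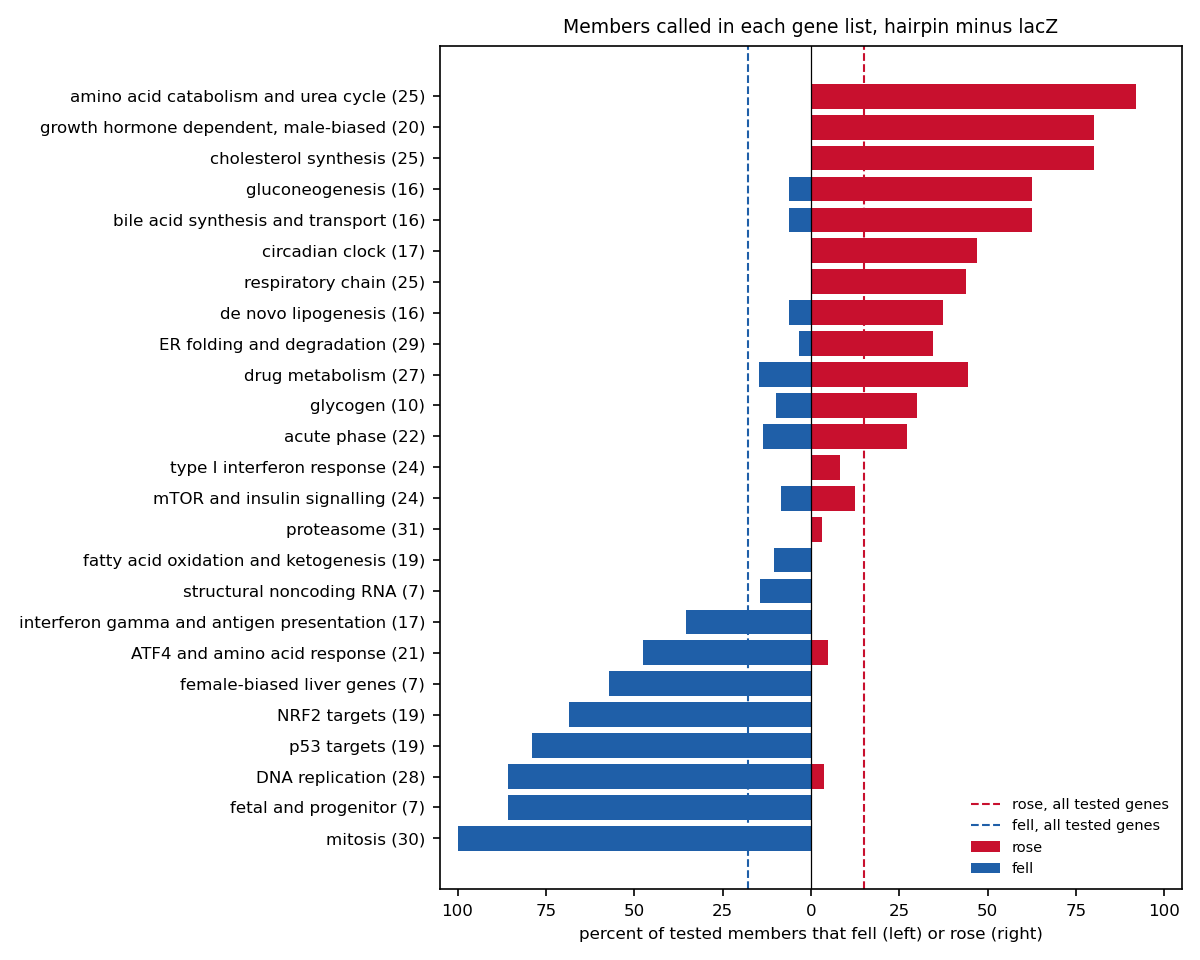
Percent of tested members that rose (red, right) or fell (blue, left) in each of 25 gene lists, with the number of tested members in brackets; dashed lines mark the 15.0% and 17.8% of all tested genes that rose and fell. All 30 mitosis genes fell and 23 of 25 amino acid catabolism genes rose, while proteasome, fatty acid oxidation and type I interferon genes stayed under the dashed lines.

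In lipid metabolism, 20 of 25 cholesterol synthesis genes rose and none fell, with a median of 1.07. Tm7sf2, a sterol reductase (chr19:6062821-6068373, minus strand), had 33.2 and 47.7 CPM in lacZ1, 16.6 and 29.9 in lacZ2, 385 and 173 in shDnajb9 and 124 and 122 in shRictor. Fdps, farnesyl diphosphate synthase with 26.2% shared sequence, rose 5.84-fold, Stard4, a sterol transport protein, 3.23-fold and Pmvk, a kinase of the mevalonate pathway, 3.07-fold. Hmgcs1, an early enzyme of the mevalonate pathway, did not pass, with a log2 fold change of 0.25, nor did Srebf2 (0.32). With total count scaling 13 of the 25 rose. Without the libraries that stood apart 17 rose.

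Of 16 lipogenesis genes, 6 rose and 1 fell, with medians of 0.40 in the Dnajb9 and 1.25 in the Rictor experiment. Taken alone, the Dnajb9 experiment had 4 risers and 1 faller and the Rictor experiment 10 risers and 1 faller. Of all genes, 24.7% and 18.5% were called in these experiments in either direction. Thrsp, a regulator of fatty acid synthesis, stood at 138 and 183 CPM in lacZ1, 97.7 and 161 in lacZ2, 1312 and 917 in shDnajb9 and 512 and 575 in shRictor. Pklr, liver pyruvate kinase, rose 3.92-fold and Dgat2, an enzyme of triglyceride synthesis, 2.70-fold. Scd2, a fatty acid desaturase found mainly outside adult liver, fell 3.69-fold, while Scd1, the main liver form, did not pass with a log2 fold change of 1.74. Fasn and Srebf1 did not pass either, with 0.59 and 0.72. DESeq2 counted 10 risers and a correction for transcript length and GC content 12.

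Fatty acid oxidation and ketogenesis held 19 tested genes, of which none rose and 2 fell, with a median of 0.06. Cpt1a, the rate-limiting transporter of fatty acids into mitochondria, had a log2 fold change of 0.02 and did not pass. The 2 that fell were Acot1, an acyl-CoA thioesterase (2.10-fold, call lost without lacZ1 replicate 2), and the peroxisomal enzyme gene Ehhadh (1.87-fold), whose call was lost without lacZ1 replicate 2, shDnajb9 replicate 2 or shRictor replicate 1. The count of fallers was 0 without lacZ1 replicate 2, 1 without shDnajb9 replicate 2 or shRictor replicate 1, and 4 without lacZ2 replicate 1 or without the pair that stood apart. With total count scaling 7 fell and the median was -0.35. Respiratory chain genes had medians of 0.68 in the Dnajb9 experiment, where 7 of 25 rose, and 0.51 in the Rictor experiment, where none was called. Over all 8 libraries the median was 0.59, and 11 of 25 rose with none falling, where 15.0% of all genes rose. Sdhb, an iron-sulfur subunit of succinate dehydrogenase, stood at 171 and 237 CPM in lacZ1, 194 and 171 in lacZ2, 1077 and 500 in shDnajb9 and 424 and 310 in shRictor. The count rested on few libraries: it was 4 without lacZ1 replicate 1 or shRictor replicate 1, 5 without lacZ1 replicate 2, 6 without shDnajb9 replicate 1 or without the pair that stood apart and 1 with total count scaling, and DESeq2 gave 19.

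Genes of glucose production rose. Of 16 gluconeogenesis genes 10 rose and 1 fell, with a median of 1.24, and 10 rose in every fit that left out a single library. G6pc, glucose-6-phosphatase, stood at 199 and 243 CPM in lacZ1, 86.8 and 248 in lacZ2, 769 and 988 in shDnajb9 and 992 and 831 in shRictor. Its partner Slc37a4, which carries glucose-6-phosphate into the endoplasmic reticulum, rose 3.27-fold and Got1, an aminotransferase, 2.56-fold. Pdk4, which shuts off pyruvate oxidation in fasting, fell 5.15-fold, from 16.9 and 17.2 CPM in lacZ1 and 52.8 and 17.1 in lacZ2 to between 3.88 and 5.70. Igfbp1, Foxo1 and Pcx did not pass, with log2 fold changes of 0.35, 0.26 and 0.42. Of 10 glycogen genes 3 rose and 1 fell, where 15.0% and 17.8% of all genes did. Ppp1r3g, which recruits protein phosphatase 1 to glycogen, rose 13.2-fold, from between 0.933 and 2.29 CPM to 44.4 and 41.6 in shDnajb9 and 8.35 and 8.02 in shRictor. Gys2, liver glycogen synthase, rose 2.38-fold and Pygl, glycogen phosphorylase, 1.87-fold. The count of glycogen fallers was 0 without lacZ1 replicate 2, shDnajb9 replicate 2 or shRictor replicate 1, 2 without lacZ2 replicate 1, 3 without the pair that stood apart and 5 with total count scaling.

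Of 16 bile acid genes, 10 rose and 1 fell, with a median of 0.96. Cyp8b1, which sets the share of cholic acid, stood at 88.8 and 171 CPM in lacZ1, 40.1 and 102 in lacZ2 and between 529 and 624 in the hairpin libraries, a 5.87-fold rise. Slc10a1, the uptake transporter NTCP, rose 5.54-fold and Slc27a5, which activates bile acids for conjugation, 4.20-fold. Cyp7a1, the rate-limiting enzyme of bile acid synthesis, had a log2 fold change of 1.93. The gene that fell was Slc51b, an export transporter subunit of the basolateral membrane, from between 1.61 and 4.08 CPM to between 0.342 and 0.587. The canalicular and other exporters Abcb11, Abcb4, Abcc2 and Abcc3 did not pass, with log2 fold changes of 0.19, -0.39, -0.62 and -0.41. Of the bile acid genes 3 fell without shRictor replicate 2 or with total count scaling. Drug metabolism genes included 12 risers and the 4 falling glutathione transferases among 27. Cyp2c54 and Cyp2c50 rose 22.8-fold and 10.7-fold and Ugt2b1, a glucuronosyltransferase, 4.40-fold; Cyp2c54 shares 25.7% of its sequence and is uncertain. Cyp2b10 and Cyp3a11, known targets of the receptors CAR and PXR, did not pass, with log2 fold changes of -0.79 and 0.49.

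Endoplasmic reticulum folding and degradation genes had medians of 0.72 in the Dnajb9 experiment and 0.31 in the Rictor experiment. Measured separately, 11 of 29 rose in the Dnajb9 experiment, while 1 rose and 1 fell in the Rictor experiment, and none was called in both. Over all 8 libraries the median was 0.54, and 10 rose and 1 fell, where 15.0% and 17.8% of all genes did. Herpud1, of the degradation machinery, stood at 204 and 274 CPM in lacZ1, 167 and 244 in lacZ2, 343 and 387 in shDnajb9 and 404 and 567 in shRictor. Derl2, a channel component of the same pathway, rose 2.16-fold and Edem1, which selects misfolded glycoproteins, 1.75-fold. Hspa5, the main chaperone BiP, did not pass, with a log2 fold change of 0.45, nor did Xbp1 (0.46). Derl3 fell 3.01-fold, with overlapping arms, and its call was lost without lacZ2 replicate 2 (adjusted p up to 0.0577). The count of 10 was 4 without lacZ1 replicate 1 or shRictor replicate 1, 3 without lacZ1 replicate 2, 6 without either shDnajb9 library, 6 without the pair that stood apart and 1 with total count scaling. Of 31 proteasome genes only Psma6 rose (1.54-fold, adjusted p = 0.0451, edgeR), lost in 6 of 8 fits without a single library and without the pair that stood apart. Without shRictor replicate 2, 5 rose, and with total count scaling none rose and 2 fell. In the Dnajb9 experiment alone 11 of the 31 rose, where 24.7% of all genes were called in either direction, and in the Rictor experiment none was called. The list's median was 0.59 in the Dnajb9 experiment and -0.01 in the Rictor experiment and turned to -0.11 over all libraries with total count scaling.

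Type I interferon genes had medians on opposite sides of 0, with 0.75 in the Dnajb9 experiment and -0.56 in the Rictor experiment, although no member passed the test of the difference between experiments. Over all 8 libraries 2 of 24 rose and none fell, where 15.0% of all genes rose. None rose without lacZ1 replicate 2, 1 did without lacZ1 replicate 1 or shDnajb9 replicate 2, and with total count scaling 1 rose and 4 fell. Ifit1, whose promoter is printed above, stood at 24.2 and 31.7 CPM in lacZ1, 30.6 and 31.1 in lacZ2, 204 and 113 in shDnajb9 and 53.05 and 35.4 in shRictor. It was high in shDnajb9. In shRictor, replicate 1 at 53.05 CPM was above the controls and replicate 2 at 35.4 CPM barely so. Leaving out lacZ1 replicate 2 ended the pooled call of Ifit1. Measured separately, 13 of the 24 rose in the Dnajb9 experiment and 4 fell in the Rictor experiment. Ifit2, Oas1a and Oas1g, antiviral genes of the same response, are 3 of the 10 genes called in opposite directions. In contrast, 6 of 17 interferon gamma and antigen presentation genes fell and none rose. These included the class II genes H2-Aa (4.04-fold), H2-Eb1 (3.88-fold) and H2-Ab1 (3.57-fold) and their chaperone Cd74. Cd74 stood at 590 and 507 CPM in lacZ1, 301 and 838 in lacZ2, 55.3 and 123 in shDnajb9 and 136 and 168 in shRictor. With total count scaling 12 of the 17 fell.

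**Figure D4:**
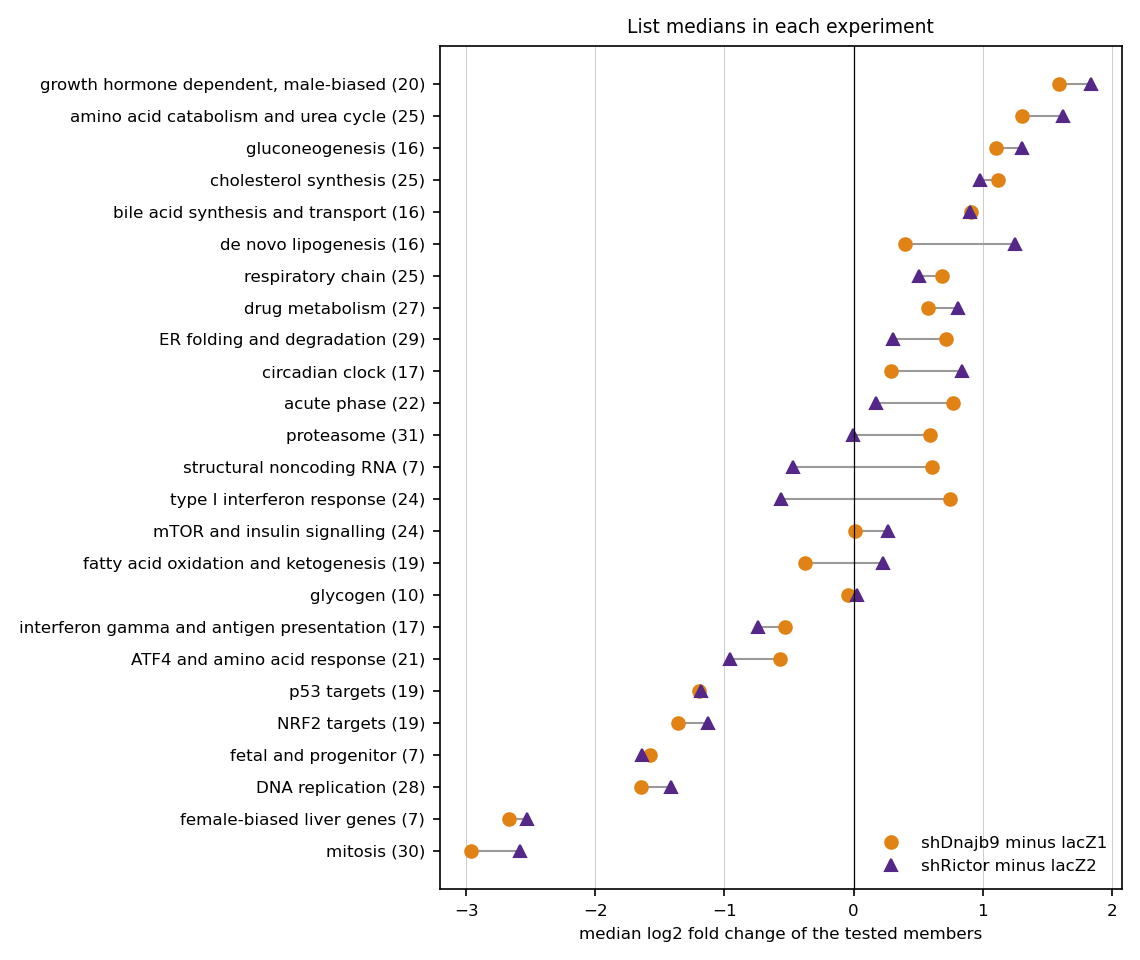
Median log2 fold change of the tested members of each list (members in brackets) in the Dnajb9 experiment (orange circles) and the Rictor experiment (purple triangles), joined by a line. The p53 and bile acid medians lie close together in both experiments, and the mitosis and amino acid medians lie on the same side of 0 in both. The type I interferon median is 0.75 in the Dnajb9 and -0.56 in the Rictor experiment, and the proteasome median 0.59 and -0.01.

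Of 22 acute phase genes 6 rose and 3 fell, with a median of 0.43, where 15.0% and 17.8% of all genes did, and 13 did not pass. Crp, C-reactive protein, rose 4.13-fold, from between 34.2 and 65.0 CPM to 348 and 263 in shDnajb9 and 179 and 144 in shRictor. Saa1 rose 2.69-fold with 31.5% shared sequence, and the fibrinogen genes Fga, Fgb and Fgg had log2 fold changes of 1.13, 1.29 and 1.18. Lcn2, an iron-binding protein made in injured liver, fell 6.00-fold and Saa3, a form made outside hepatocytes too, 3.01-fold. Steap4, a metal reductase, fell 1.80-fold with a call lost in 6 of 8 fits without a single library. With total count scaling 5 fell.

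Of 24 mTOR and insulin signalling genes 3 rose and 2 fell, shares below those of all genes. Deptor, an inhibitor of mTOR, stood at 104 and 85.8 CPM in lacZ1, 69.1 and 90.8 in lacZ2, 144 and 193 in shDnajb9 and 346 and 347 in shRictor. It was highest in shRictor, with log2 fold changes of 0.83 and 2.12 in the Dnajb9 and Rictor experiments. Akt2, a kinase of the insulin pathway, rose 1.69-fold. Prkca, a protein kinase C, fell 2.31-fold, and Mlst8, a shared subunit of both mTOR complexes, fell 1.89-fold with a call lost in 5 of 8 such fits. Total count scaling gave 1 riser and 6 fallers, and the length and GC correction gave 9 risers.

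Of 17 circadian clock genes 8 rose and none fell, with a median of 0.51. Dbp, a clock-controlled transcription factor, stood at 35.5 and 28.2 CPM in lacZ1, 27.4 and 32.1 in lacZ2, 92.2 and 70.96 in shDnajb9 and 88.9 and 91.8 in shRictor, a 2.78-fold rise with no overlap. Tef and Ciart, also clock-controlled, rose 1.96-fold and 2.19-fold. Arntl and Clock, of the positive limb, did not pass, with log2 fold changes of -0.49 and -0.26, nor did Per1 (-0.19). The labels used here give no hour of sampling. With total count scaling 4 rose and 2 fell.

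Of 7 tested fetal and progenitor genes 6 fell, although the filter again favours genes with counts in lacZ libraries. H19, a long noncoding RNA of fetal liver, stood at 42.3 and 48.7 CPM in lacZ1, 484 and 38.7 in lacZ2, 1.68 and 1.14 in shDnajb9 and 0.941 and 0.978 in shRictor. Even the lowest lacZ library was far above every hairpin library, and lacZ2 replicate 1 was the highest. Sox4, a transcription factor of progenitors, fell 2.58-fold, and Gpc3, a fetal proteoglycan, fell from between 0.976 and 5.598 CPM to 0.228 CPM or less. Afp, alpha-fetoprotein, did not pass with a log2 fold change of -0.62. Of 7 structural noncoding RNAs only Neat1, the scaffold of paraspeckles, fell (2.73-fold), where 17.8% of all genes fell. The Neat1 call was lost without the pair that stood apart, and Malat1 had a log2 fold change of -0.04.

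With TMM scaling, marker sums of hepatocytes, stellate cells, T and NK cells, neutrophils, cholangiocytes and erythroid cells did not overlap between the arms. Those of Kupffer, B, endothelial and adipose cells and of pancreas and muscle did. Without the TMM factors the hepatocyte sums overlap and the Kupffer sums do not. The median log2 fold change of hepatocyte markers was 0.86, and 0.44 with total count scaling. For Kupffer cell and macrophage markers it was -0.52, and -0.93 with total count scaling. In bulk RNA, fewer cells of a type and less RNA per cell cannot be told apart. The 10 hepatocyte markers summed to between 35371 and 75711 CPM in lacZ libraries and between 78335 and 100508 in hairpin libraries, and 5 rose, among them Apoa2, Apoa1 and Ttr (3.72-fold, 3.68-fold and 2.67-fold). Alb, Apob and Hnf4a did not pass, with log2 fold changes of 0.15, 0.09 and 0.24, and 3 rose without lacZ1 replicate 1 or shRictor replicate 1. Of 15 stellate cell and fibroblast markers 7 fell, with a sum of 718 to 837 CPM against 470 to 594. Col3a1, a fibrillar collagen, stood at 274 and 226 CPM in lacZ1, 217 and 229 in lacZ2, 95.4 and 78.6 in shDnajb9 and 65.6 and 81.6 in shRictor. Acta2, Lum and Timp1 fell 3.05-fold, 2.41-fold and 7.59-fold, while Dcn, Lrat and Reln had log2 fold changes of 0.04, 0.38 and 0.51.

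Of 11 tested Kupffer cell and macrophage markers 4 fell, where 17.8% of all genes fell. The markers summed to 1942 to 2265 CPM in lacZ and 1151 to 1955 in hairpin libraries, which overlapped with TMM scaling. Cd68 fell 1.81-fold, whereas the resident Kupffer cell marker Clec4f had a log2 fold change of 0.21 and Vsig4 -0.15. That count was 2 without lacZ1 replicate 2, shDnajb9 replicate 2 or lacZ2 replicate 2 and 1 without shRictor replicate 1, and 9 with total count scaling. T and NK cell markers summed to 59.2 to 104 CPM against 39.4 to 56.0, and 4 of 13 fell, led by Cd8a (2.52-fold) and Lck (1.86-fold). This count was 8 without lacZ2 replicate 1, 2 without any other library except shDnajb9 replicate 2, and 12 with total count scaling. Neutrophil markers summed to 22.5 to 48.6 CPM against 6.29 to 15.97, and 3 of 5 tested fell, S100a9 by 6.84-fold from at most 3.15 CPM, with 1 faller without lacZ1 replicate 1 or shRictor replicate 1 and 5 with total count scaling. Another 4 had too few counts to test, and markers as low as S100a9 and Camp passed the filter through the lacZ libraries, so this count is no measure of the whole list.

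Of 12 sinusoidal endothelial markers 2 rose, Ptprb (1.70-fold) and Clec4g (1.71-fold), a share near the 15.0% of all tested genes that rose. Both calls were lost without lacZ1 replicate 2 or shRictor replicate 1, and that of Clec4g without 7 of the 8 libraries in turn. Without the pair that stood apart 1 rose, and with total count scaling none rose and 3 fell. Cholangiocyte markers summed to 60.8 to 114 CPM against 28.5 to 60.1, with Spp1 the only 1 of 4 that fell and Krt19 at a log2 fold change of 0.06. The Spp1 call was lost without lacZ1 replicate 2, lacZ2 replicate 2 or shRictor replicate 1, and 2 fell with total count scaling. None of 3 tested B cell markers passed, nor did the adipocyte gene Cfd (0.12). Cela1, the only pancreatic or muscle marker tested, rose 2.78-fold, a call lost without lacZ1 replicate 2, and Lep and Ckm were listed at 0 in every library. Erythroid markers split: Alas2, the first enzyme of erythroid heme synthesis, rose 5.41-fold, to 593 CPM in shDnajb9 replicate 1, Slc4a1, the band 3 anion exchanger, fell 6.42-fold, and the globin genes Hba-a1 and Hbb-bs were listed at 0 in every library. The part that these markers have in the immune, fibrotic and metabolic lists was not tested.

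**Figure D5:**
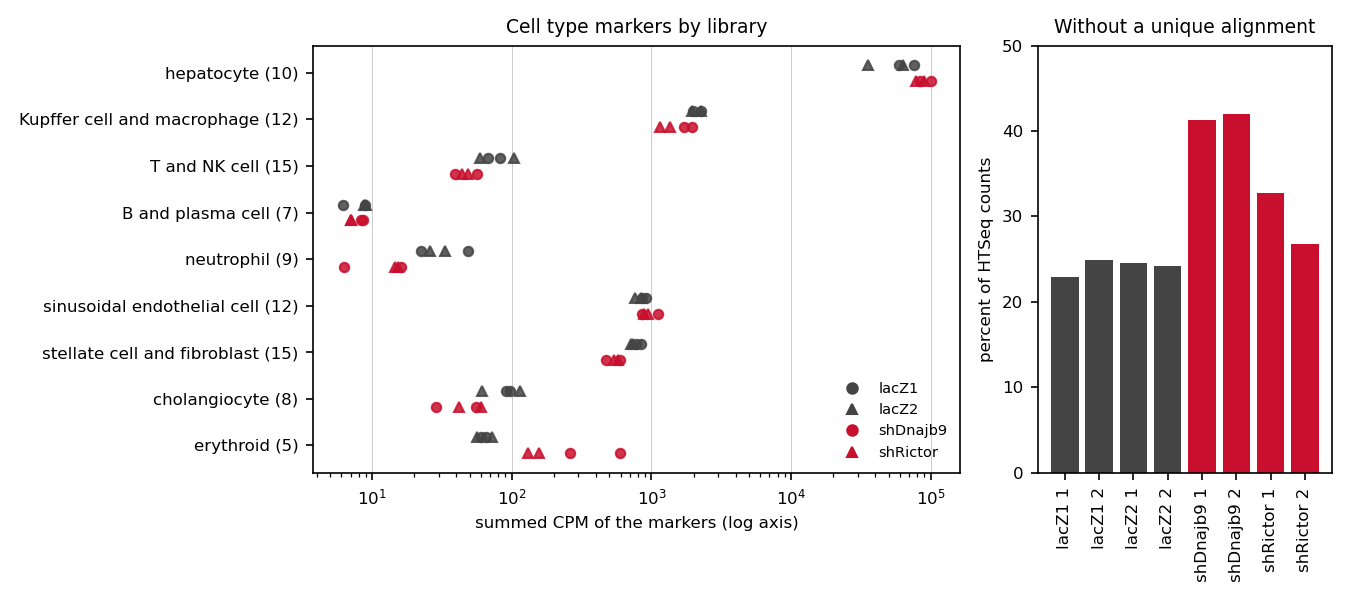
Left, summed CPM of the markers of 9 cell types in each library on a log axis, with the number of markers in brackets, lacZ in grey and hairpin in red, circles the Dnajb9 and triangles the Rictor experiment. Right, percent of all HTSeq counts without a unique alignment per library, where the lacZ bars lie between 22.9% and 24.9% and the hairpin bars between 26.7% and 42.0%. Hepatocyte marker sums of hairpin libraries start at 78335 while those of lacZ libraries end at 75711, a gap that holds with TMM scaling only.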

How the data were processed

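Liver RNA was measured in 8 libraries. The authors deposited raw counts by gene symbol, made with cutadapt and HTSeq on mm10, per the submitters' processing notes; the aligner, annotation and strand setting are not given in the sources used here, so antisense and overlapping transcripts may share counts. Unassigned HTSeq classes were left out of library sizes (22.9% to 42.0% of counts had no unique alignment), and 27 of 24062 entries carried a date in place of a symbol. The filter filterByExpr (minimum count 10) left 13477 genes to test. Counts were fitted in R 4.3.3 with edgeR 4.0.16 (TMM, robust quasi-likelihood F test, arm plus experiment, 5 residual degrees of freedom, common biological coefficient of variation 0.226). A call needed an adjusted p (Benjamini-Hochberg) under 0.05, and a fit with 4 group means gave each experiment and their difference. The scripts were tested on simulated data. Genes with 20% or more of their 50-base stretches in another gene are called uncertain (736 of those tested), with 98.3% of entries matched to GENCODE M21.

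The comparison and the gene lists were chosen with earlier results of these data known. Named genes were the targets, the 12 genes each way with the smallest adjusted p (average log2 CPM of at least 1, no overlap, same sign in each experiment, no predicted names), up to 4 called members of each list with any that went against it, and the 5 called genes that differed most between experiments. Other list members were given to show values that did not pass, and a few of those that did. Some genes that these rules name are not reported here. Alternatives were RLE scaling, total count, no filter, at least 2 CPM in 4 libraries, non-robust moderation, DESeq2 1.42.0, limma-voom (limma 3.58.1), no covariate, 4 group means, a replicate block, an adjusted p under 0.1, a test against 1.5-fold and leaving out libraries. A length and GC correction and a crossed block were added after seeing the data. Of the list entries, 41 had too few counts to test and 3 were not found in the tables.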

Additional observations from a re-analysis of the deposited data

Results flagged for a closer look

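Of 70 groups of 4 libraries, taken over the library measures and the named genes with the smallest adjusted p, 7 held a library whose gap to its neighbour was too large a share of the range of the group by Dixon's criterion, and chance gives about 1 in 20. Among lacZ libraries, lacZ1 replicate 2 had the fewest detected genes, 16363, and 5.01 CPM of Igfbp3, above the other 3. Also in lacZ1, replicate 1 had 78.3 CPM of Cyp2a4, below the rest. In lacZ2 replicate 1, Ly6d stood at 424 CPM and Golm1 at 57.6 CPM, above the other lacZ libraries. Among hairpin libraries, the 10 most abundant genes took 17.1% of gene counts in shDnajb9 replicate 1, and Gpnmb stood at 9.10 CPM in shRictor replicate 2. Slc17a8 was the gene whose change differed between experiments, by 2.97 on the log2 scale (adjusted p = 0.00953, edgeR), with both shDnajb9 libraries below and both shRictor libraries above their controls.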

How the results depend on the processing

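All 4414 called genes kept their direction in each fit that left out a single library, while 4408 did with total count scaling and 4413 with the length and GC correction. Leaving out each library in turn gave 3032 to 4631 called genes, 1312 to 2153 that rose, 1720 to 2478 that fell, 748 to 1560 called in both experiments and 0 to 17 that differed between experiments. Without shDnajb9 replicate 1 and lacZ2 replicate 1 together, 984 were called in both experiments and 0 differed. The test against a 1.5-fold change left 1672 genes, 628 that rose and 1044 that fell, with 689 called in both experiments. Total count scaling gave 780 risers and 4954 fallers, and the length and GC correction, chosen after seeing the data, gave 3111 risers. The count of genes that differed was 395 without the low count filter and 45 with DESeq2. With a replicate block 3311 genes passed, 1421 upward and 1890 downward, 1022 in both experiments and 0 that differed. Deviations of same-numbered libraries from their group means correlated at -0.338 in the Dnajb9 and -0.029 in the Rictor experiment. With 2 libraries per group these deviations mirror each other, so the correlations cannot show whether same-numbered libraries were paired. The block left 4 risers each in the endoplasmic reticulum and respiratory chain lists and 2 fallers among T and NK cell markers. With the Dnajb9 numbers crossed, 4271 genes were called and 80 differed. The log2 fold change of Dnajb9 turned to 0.00149 and that of Slc17a8 to 0.46 without the experiment covariate, and over the fits without a single library they ran from -0.338 to 0.0269 and -0.68 to 0.30. The cause of these changes was not tested. The depth of 6426164 to 11383532 gene counts and 2 libraries per group gave a median SE of 0.216 on the log2 scale.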

Other observations

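Genes outside the lists also differed widely between the arms, and the following were chosen after their values were seen. Moxd1, a monooxygenase-like protein, stood at 0.799 and 0.358 CPM in lacZ1, 0 and 0.0846 in lacZ2, 12.8 and 139 in shDnajb9 and 19.1 and 59.5 in shRictor, with an adjusted p of 0.000149 (edgeR). All 4 hairpin libraries were higher, with a wide spread among them. Lipn, a lipase family member, stood at 3.28 and 6.08 CPM in lacZ1, 20.3 and 5.41 in lacZ2, 0 in both shDnajb9 libraries and 0.118 and 0.0979 in shRictor (adjusted p = 7.7e-05, edgeR). Sprr1a, an epithelial cornified envelope protein also induced by injury, stood at 5.86 and 6.44 CPM in lacZ1, 34.9 and 6.09 in lacZ2, 0 in both shDnajb9 libraries and 0.235 and 0.0979 in shRictor (adjusted p = 0.000119, edgeR). Both were highest in lacZ2 replicate 1, as were H19 and Ly6d. In the male-biased list, Hsd3b5, a steroid enzyme with 21.2% shared sequence, went from at most 6.32 CPM in lacZ libraries to between 86.0 and 474 in hairpin libraries.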
